A study of Homo sapiens with 15 samples.

Results

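The genes described here are 36 genes of the actin cytoskeleton, many of them known targets of serum response factor (SRF), taken by symbol from the 25737 entries of a table of mRNA counts. They fall into 7 groups by role. The smooth-muscle-type genes were ACTA2, ACTG2, TAGLN, CNN1, LMOD1 and CALD1. The cytoplasmic actins and crosslinkers were ACTB, ACTG1, ACTN1, ACTN4, TAGLN2, CNN2 and CNN3. The myosins were MYL9, MYL6, MYL12A, MYL12B, MYH9 and MYH10, and the tropomyosins were TPM1, TPM2, TPM3 and TPM4. The filamins and adhesion scaffolds were FLNA, FLNC, VCL and TNS1. The LIM proteins were FHL2, ZYX, PDLIM5, PDLIM7, CSRP1 and TGFB1I1, and the regulators were SRF, MKL1 and MKL2. The libraries came from U87MG, an established line of malignant glioma cells, exposed for 24 h to a control lentivirus carrying GFP or to lentivirus made to overexpress ID1, ID2, ID3 or ID4, with 3 libraries in each of the 5 groups. ID proteins carry a helix-loop-helix domain without a DNA-binding region and keep partner transcription factors of that class from DNA. The labels do not say whether the 3 libraries of a group came from separate cultures, so p-values measure only the spread between these libraries, and which promoter drove the transgenes is not given in the sources used here.

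Actin filaments give a cell its shape and its traction. Non-muscle myosin pulls on them when its regulatory light chains are phosphorylated, tropomyosins and calponins lie along them, α-actinins and filamins link them to each other, and vinculin, zyxin and tensin tie them to adhesions. SRF is a transcription factor that binds a short element called the CArG box in the promoters of many of these genes. Its cofactors MKL1 and MKL2, also called MRTF-A and MRTF-B, are held by monomeric actin and move to the nucleus when actin assembles into filaments, so the mRNA levels of cytoskeletal genes can follow the state of actin itself. ACTA2, TAGLN and CNN1 are best known from smooth muscle and from myofibroblasts, and glioblastoma cells rely on actin and myosin for migration.

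Levels are given in CPM, counts per 1000000 of the library total as scaled by edgeR's TMM method. The QuantSeq kit reads about 1 fragment per transcript, near its 3′ end, so levels were not divided by gene length. Totals were 11089044 to 15148979 counts per library, so that 3 counts, taken as the floor for counting error only, were worth 0.197 to 0.270 CPM. ID1 mRNA was at 248 ± 2.43 CPM (SD, n = 3) in the libraries labelled ID1 and 345 ± 8.19 CPM in GFP (log2 fold change -0.48, edgeR adjusted p = 5.54e-06). ID2 mRNA was at 45.6 ± 1.57 CPM in those labelled ID2 and 85.9 ± 1.94 CPM in GFP (-0.92, edgeR adjusted p = 3.08e-10). Counts of each gene were thus lower, not raised, under its own label. ID2 mRNA was also called lower in ID1, ID3 and ID4 (-1.33, -0.90 and -1.26), and ID1 mRNA in ID4 (-0.30). ID3 mRNA was higher than in GFP both in its own group (1.40-fold, edgeR adjusted p = 9.92e-06) and in ID2 (1.32-fold, adjusted p = 7.19e-05), and these 2 groups were not called apart for it (adjusted p = 0.416). ID4 mRNA was at 223 ± 12.2 CPM in its own group, with at most 2 counts in a GFP library. Whether these 3′ counts register the vector transcripts cannot be told from the sources used here. Statements on the libraries labelled ID1, ID2 or ID3 therefore rest on their labels. Library 3 of ID2 stood apart from the other ID2 libraries, with a chi-square per degree of freedom of 10.7 and 11.3 against them, where other pairs of libraries within a group gave 2.24 to 5.19. Counts of members called in ID2 are therefore given with and without it. The glial markers GFAP, S100B, OLIG2 and SOX2 had at most 11 counts in any library, whereas the mesenchymal markers VIM, CD44 and FN1 were at 504 CPM or more in every library.

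Of the 36 members, 34 passed the limit for testing, and ACTG2 and MYH10 lay below it. The limit was a mean deposited log2 value, over all 15 libraries, in the upper 50% of the table. In GFP, MYL9, TAGLN and TNS1 were at 0.33, 0.51 and 0.35 CPM, near the 0.38 CPM of MYH10. These genes passed with the help of their higher levels in ID groups, so their calls against GFP are not independent of the limit. A gene was called where the adjusted p of edgeR's quasi-likelihood test, corrected over all 12870 tested genes, was under 0.05. Against GFP, 19 of the 34 members were called higher in ID1, 25 in ID2, 18 in ID3 and 16 in ID4. Over all tested genes, the share called higher was 12.4% in ID1, 18.5% in ID2, 15.1% in ID3 and 12.1% in ID4. In the other direction, 1 member, TPM3, was called lower in ID1, in ID2 and in ID3 and no member in ID4 (edgeR; 2 members at an unadjusted p under 0.05 and 0 called lower by DESeq2). Over all tested genes, 9.73%, 16.7%, 13.5% and 9.51% were called lower in the same order. The median log2 fold change of the 34 members was 0.31 in ID1, 0.41 in ID2, 0.25 in ID3 and 0.21 in ID4, and the same median over all tested genes lay between -0.0039 and 0.00098. Without library 3 of ID2, 27 members were called in ID2 against GFP in place of 26. The 4 comparisons share the GFP libraries and are not independent of each other. The members were chosen with earlier results of these data known. Their counts here and below, set beside those of all tested genes, are therefore not independent evidence on the set.

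Of the 34 tested members, 13 were called higher in all 4 ID groups. These were ACTA2, CNN1, CALD1, ACTN1, ACTN4, MYL9, MYL6, TPM1, TPM2, FLNA, FLNC, FHL2 and PDLIM7. A further 4 members (TAGLN, CNN2, MYH9 and TNS1) were called higher in 3 groups, 4 (LMOD1, ACTB, TAGLN2 and VCL) in 2 groups, and 6 (ACTG1, TPM4, ZYX, PDLIM5, CSRP1 and SRF) in 1 group. The 7 members called higher in none were CNN3, MYL12A, MYL12B, TPM3, TGFB1I1, MKL1 and MKL2. The lowest of the 5 group means was in GFP for 25 of the 34 and the highest was in ID2 for 20 of them. Together the 36 members took 1.71% to 1.79% of the counts of a GFP library, 2.01% to 2.06% in ID1, 2.14% to 2.19% in ID2, 1.982% to 1.995% in ID3 and 1.95% to 1.99% in ID4, so the range of each ID group lay above that of GFP. In such bulk libraries, more RNA per cell and more cells that make it cannot be told apart.

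**Figure D1:**
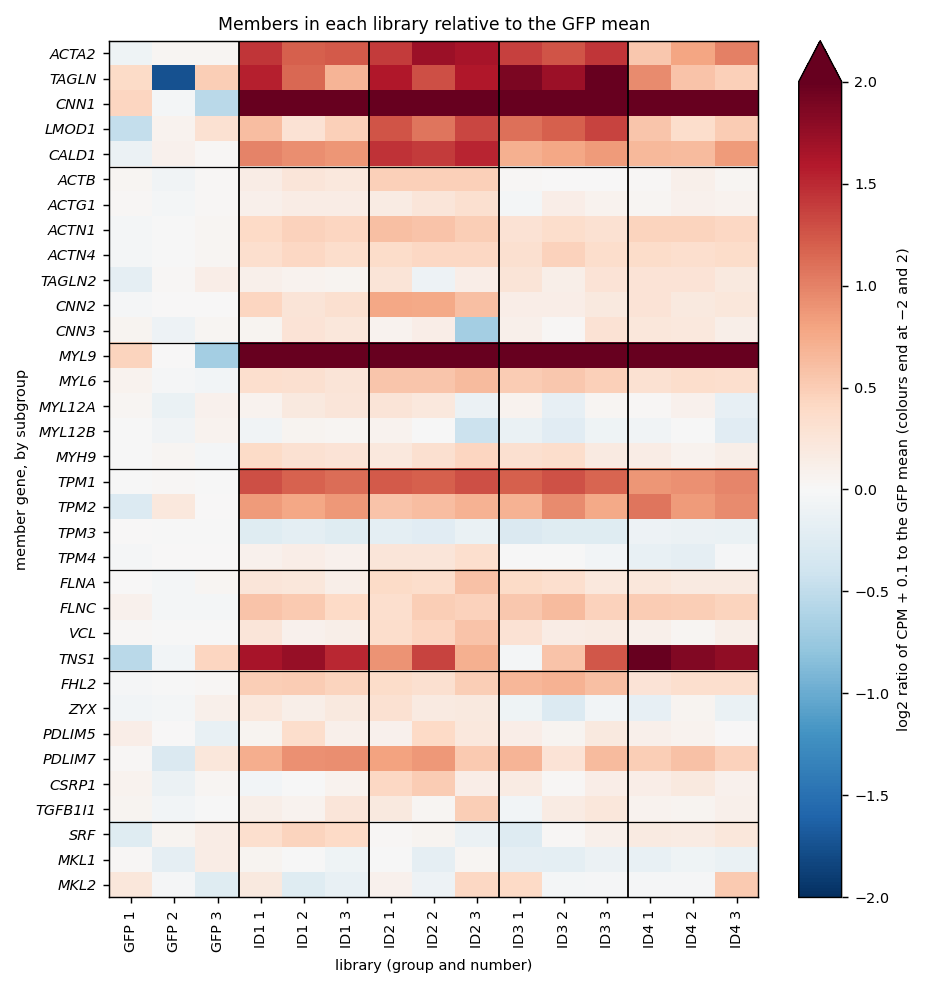
Each row is 1 of the 34 tested members and each column 1 library, ordered by group; colour gives the log2 ratio of the library's CPM plus 0.1 to the GFP mean plus 0.1, with colours ending at -2 and 2 and lines between groups and roles. CNN1 and MYL9 are past the upper end of the scale in all 12 ID libraries, TPM1 is raised in all of them, and CNN3 is low in library 3 of ID2.

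All 5 tested smooth-muscle-type genes were called higher in ID2 and in ID3, 4 of 5 in ID1 and 3 of 5 in ID4. Their median log2 fold change was 1.29 in ID1, 1.62 in ID2, 1.37 in ID3 and 0.75 in ID4.

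On GRCh37, ACTA2 lies at chr10:90694831-90751096 on the minus strand, CNN1 at chr19:11649582-11661138 on the plus strand, TAGLN at chr11:117070086-117078180 on the plus strand, LMOD1 at chr1:201865584-201915676 on the minus strand and CALD1 at chr7:134429003-134655480 on the plus strand. ACTA2 encodes smooth muscle α-actin, the actin that marks contractile myofibroblasts. Its level was 4.68, 5.09 and 5.08 CPM in the GFP libraries, 13.5, 11.45 and 11.7 in ID1, 13.2, 16.5 and 15.7 in ID2, 12.9, 12.01 and 13.5 in ID3 and 7.25, 8.63 and 10.1 in ID4. Every ID library lay above every GFP library, and the ID4 libraries lay below those of the other ID groups. The level rose 2.48-fold in ID1, 3.06-fold in ID2 (log2 fold change 1.62 ± 0.14, standard error, edgeR adjusted p = 6.08e-09), 2.59-fold in ID3 and 1.75-fold in ID4 (adjusted p = 0.000387). Among the ID groups, ID4 was below ID2 (adjusted p = 0.000103), its call below ID1 was lost without ID1 library 1 or 3 or ID4 library 1 or 2 (adjusted p 0.0527 to 0.186), and its call below ID3 without ID4 library 1 (adjusted p = 0.0581). ACTA2 had 60 to 236 counts per library, and the entry ACTA2-AS1, annotated on the opposite strand over the same place, has 93.2% to 100.8% of the ACTA2 count in each library. A second opposite-strand neighbour, STAMBPL1, had 143 to 307 counts. Reads of the gene and of its opposite-strand partners cannot be told apart, since the strand setting of the counting is not given in the sources used here. The tested genes of chromosome 10, where ACTA2 and VCL lie, had median log2 fold changes of -0.14, -0.16, -0.082 and -0.10 in ID1, ID2, ID3 and ID4. The part of that chromosome was not tested.

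CNN1 encodes calponin 1, which binds actin and restrains the myosin motor in smooth muscle. It was at 7.89, 5.67 and 3.98 CPM in the GFP libraries, 63.4, 56.5 and 51.4 in ID1, 62.04, 66.9 and 68.3 in ID2, 41.2, 43.3 and 41.1 in ID3 and 43.2, 41.8 and 42.2 in ID4. All 12 ID libraries were at 41.1 CPM or more and all 3 GFP libraries at 7.89 CPM or less. In ID1 the level was 9.60-fold that of GFP (log2 3.26 ± 0.13), in ID2 11.05-fold (3.47 ± 0.13), in ID3 7.03-fold (2.81 ± 0.13) and in ID4 7.13-fold (2.83 ± 0.13), each with an edgeR adjusted p of 7.41e-13 or less. ID2 and ID1 had the top means and were not called apart (adjusted p = 0.164), nor were ID3 and ID4 (adjusted p = 0.934), whereas ID2 was 1.57-fold the level of ID3 (adjusted p = 0.000102).

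TAGLN encodes transgelin, also called SM22α, an actin-binding protein of smooth muscle. It was rare in these cells, with 1 to 37 counts per library. Its level was 0.698, 0.0834 and 0.762 CPM in the GFP libraries, 1.71, 1.26 and 0.883 in ID1, 1.77, 1.40 and 1.77 in ID2, 2.16, 1.92 and 2.75 in ID3 and 1.08, 0.809 and 0.758 in ID4. All ID3 libraries were at 1.92 CPM or more, and the ID4 range reached into that of GFP. The level rose 3.10-fold in ID2 (log2 fold change 1.63, SE 0.41, edgeR adjusted p = 0.00324) and 4.28-fold in ID3 (log2 fold change 2.10, SE 0.39, edgeR adjusted p = 0.000282). On summed counts, 96 in ID3 against 20 in GFP gave a ratio of 4.32 with a 95% interval of 2.65 to 7.39 for counting error only. The rise in ID1 (log2 fold change 1.29, SE 0.43, edgeR adjusted p = 0.0319) was not called without GFP library 2 or without ID1 library 1 or 2 (adjusted p 0.0632 to 0.158), and GFP library 2 held a single count. ID4 was not called (adjusted p = 0.288). The opposite-strand neighbour PCSK7 had at least 145 counts in every library.

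LMOD1 encodes leiomodin 1, which nucleates actin filaments in smooth muscle. Its level was 2.37, 3.503 and 4.15 CPM in the GFP libraries, 5.19, 4.09 and 4.71 in ID1, 8.11, 7.13 and 8.63 in ID2, 7.29, 7.74 and 8.70 in ID3 and 4.93, 4.31 and 4.78 in ID4. The ID2 and ID3 libraries lay above all others, and ID1 overlapped GFP. LMOD1 rose 2.41-fold in ID2 (edgeR adjusted p = 7.1e-06) and 2.39-fold in ID3 (adjusted p = 1.28e-05), and was not called in ID1 (adjusted p = 0.0619) or ID4 (adjusted p = 0.0661), though ID1 passed without GFP library 3 (adjusted p = 0.0241) and ID4 without that library and by limma (lowest adjusted p 0.026). ID2 and ID3 also stood above ID1 and above ID4, by 1.70-fold for ID2 over ID4 (adjusted p = 0.00254) and by 1.68-fold for ID3 over ID4 (adjusted p = 0.00552).

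CALD1 encodes caldesmon, an actin- and tropomyosin-binding protein present in smooth muscle and, as a shorter form, in other cells. Gene counts do not separate the forms. It was at 342, 394 and 379.6 CPM in the GFP libraries, 739, 705 and 683 in ID1, 1009, 981 and 1069 in ID2, 611, 634 and 673 in ID3 and 583, 574 and 673 in ID4. The groups did not overlap with GFP, and all ID2 libraries exceeded all other libraries. CALD1 rose 1.91-fold in ID1, 2.74-fold in ID2 (log2 fold change 1.46, SE 0.064, edgeR adjusted p = 8.23e-14), 1.72-fold in ID3 and 1.64-fold in ID4, with an adjusted p of 2.85e-08 or less in each. The level in ID2 was 1.59-fold that in ID3 (adjusted p = 1.63e-07) and 1.67-fold that in ID4 (adjusted p = 2.07e-08).

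ACTG2, the enteric smooth muscle actin, had 0 counts in every GFP library, which allows up to 0.209 to 0.254 CPM per library. The ID2 libraries had 3, 5 and 4 counts, those of ID1 at most 2, and those of ID3 and ID4 at most 1. These values lie at or near the floor, and ACTG2 was not tested.

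**Figure D2:**
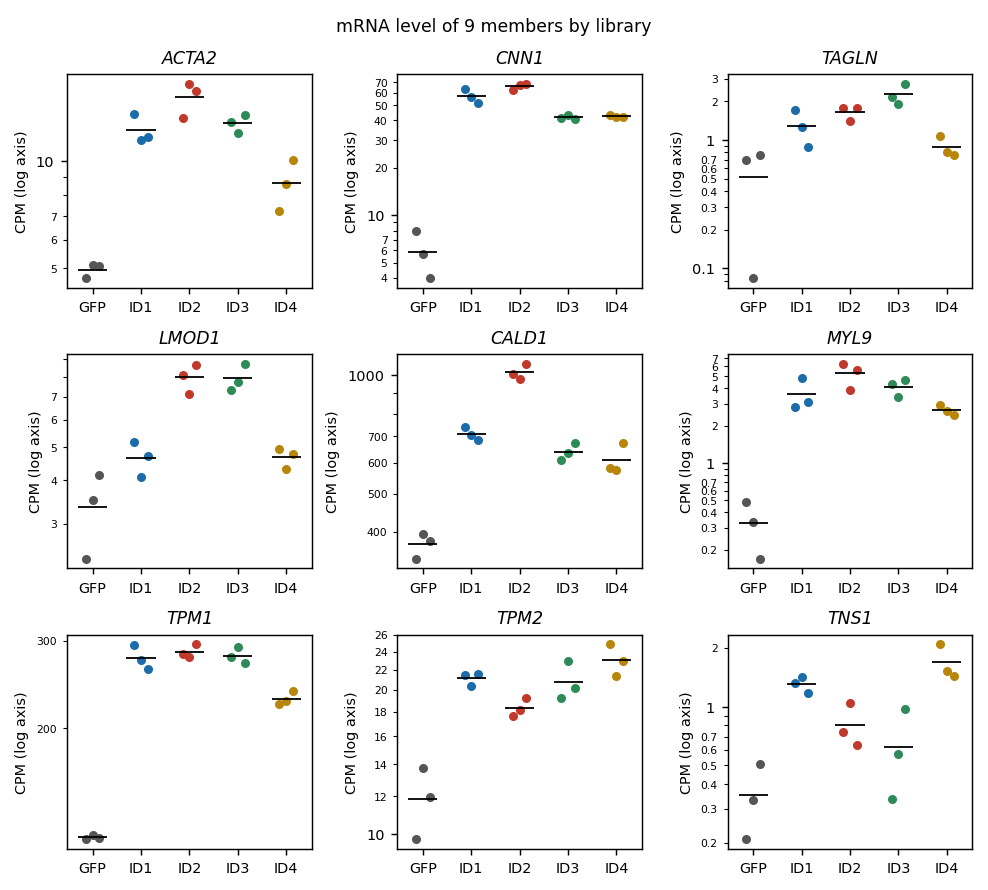
Level of 9 members in each library (points, CPM on a log axis) with the group mean (line). In ACTA2, CNN1, CALD1, MYL9, TPM1 and TPM2 the GFP points lie below every ID point; GFP library 2 is the low point of TAGLN.

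Promoters were read for the members from a RefSeq table on GRCh38.p14, in windows of 300 bases that reach 250 bases before and 50 bases after each start. The table held 33 of the 36 members and not TAGLN, ACTB and MYL9. Since SRF targets were a basis of the member list, a high share of CArG boxes is not independent evidence. A CArG box stood in 11 of the 69 windows of members (15.9%) and in 454 of the 35116 windows of all genes (1.29%). The E-box CANNTG, the element bound by the partners of ID proteins, stood in 63.8% of the members' windows and 68.7% of all windows. CArG boxes are symmetric, so a match on 1 strand is a match on the other, and the members that held 1 or more were ACTG1, ACTG2, ACTN1, CNN2, FHL2, FLNA, SRF, TGFB1I1 and TPM4. By their letters a CArG box and an E-box cannot overlap. Of those 9 members, ACTN1, FLNA and FHL2 were called higher in all 4 ID groups and TGFB1I1 in none. SRF itself had a pair of boxes, 30 and 10 bases before its start.

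The bases before the start are shown for 3 smooth-muscle-type genes that differ in what the window holds. Capitals mark CArG boxes in ACTG2, at chr2:73892758-73893007 on the plus strand. The table gave 2 windows for ACTA2, and the other, which is not shown, held neither a box nor a near match. In ACTA2, at chr10:88952774-88953023 on the minus strand, capitals mark a pair of near matches, each with 1 of the 6 middle letters of the box changed to G or C, a search added after the sequences were seen. Such near matches stood in 9 of the 69 windows of members, against 6.94% of all windows. Overlapping windows of TGFB1I1 count the same near match again. CNN1, at chr19:11538601-11538850 on the plus strand, held neither. Bases outside the windows were not searched, and whether a box bears on the rise of a gene was not tested.
ACTG2: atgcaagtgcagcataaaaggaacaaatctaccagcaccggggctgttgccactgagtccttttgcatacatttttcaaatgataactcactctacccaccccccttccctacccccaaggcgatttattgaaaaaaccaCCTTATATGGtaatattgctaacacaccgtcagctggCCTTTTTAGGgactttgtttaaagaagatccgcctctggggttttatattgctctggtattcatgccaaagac
ACTA2: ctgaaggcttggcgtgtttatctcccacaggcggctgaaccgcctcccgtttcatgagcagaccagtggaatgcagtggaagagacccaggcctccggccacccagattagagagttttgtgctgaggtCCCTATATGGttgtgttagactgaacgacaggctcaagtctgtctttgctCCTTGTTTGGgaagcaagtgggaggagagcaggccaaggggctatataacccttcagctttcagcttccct
CNN1: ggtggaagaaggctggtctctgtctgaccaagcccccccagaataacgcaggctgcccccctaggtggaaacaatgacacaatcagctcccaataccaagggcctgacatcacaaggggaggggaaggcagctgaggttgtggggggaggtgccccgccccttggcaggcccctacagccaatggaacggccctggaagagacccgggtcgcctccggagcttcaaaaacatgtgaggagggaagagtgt

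The boxes of ACTG2 read CCTTATATGG and CCTTTTTAGG, beginning 110 and 73 bases before the start, and the near matches of ACTA2 read CCCTATATGG and CCTTGTTTGG, beginning 121 and 71 bases before it. The box of ACTG1 read CCATATATGG, that of FLNA CCAATTAAGG and that of CNN2 CCTTATAAGG, at 94, 94 and 89 bases before the start. A match is a description of the letters, and the binding of SRF was not measured in these libraries.

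Among the myosins, 3 of 5 tested genes were called higher in ID1, ID2 and ID3 and 2 of 5 in ID4. MYL9 encodes the regulatory light chain of smooth muscle and non-muscle myosin whose phosphorylation switches the motor on. It lies at chr20:35169900-35179850 on the plus strand of GRCh37. It was rare in the control cells, at 0.489, 0.334 and 0.169 CPM in the GFP libraries, 2.82, 4.83 and 3.09 in ID1, 6.27, 3.91 and 5.66 in ID2, 4.32, 3.41 and 4.68 in ID3 and 2.93, 2.61 and 2.43 in ID4. No ID library was below 2.43 CPM and no GFP library above 0.489 CPM. MYL9 had 13 counts in the 3 GFP libraries together and 150, 221, 175 and 99 in ID1, ID2, ID3 and ID4. The ratio to GFP on summed counts was 10.4 in ID1 (95% interval 5.91 to 20.01 for counting error only), 15.4 in ID2 (8.84 to 29.4), 12.1 in ID3 (6.91 to 23.2) and 7.79 in ID4 (4.35 to 15.1). The fitted log2 fold changes were 3.35 ± 0.37, 3.92 ± 0.35, 3.57 ± 0.36 and 2.93 ± 0.40, with edgeR adjusted p-values of 5.47e-07, 1.02e-08, 1.35e-07 and 9.63e-06. The ID2 level was 1.98-fold that of ID4 (adjusted p = 0.00497), and the other pairs of ID groups were not called apart.

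MYL6, the essential light chain, was far more abundant, at 575, 542 and 530.2 CPM in the GFP libraries, 693, 684 and 657 in ID1, 811, 805 and 849 in ID2, 782, 799 and 763 in ID3 and 682, 704 and 694 in ID4. All ID libraries exceeded all GFP libraries, and ID2 and ID3 exceeded ID1 and ID4. MYL6 rose 1.23-fold in ID1, 1.496-fold in ID2 (edgeR adjusted p = 1.18e-09), 1.42-fold in ID3 and 1.26-fold in ID4 (adjusted p = 8.81e-06). MYL6 lies on chromosome 12, whose tested genes had median log2 fold changes of 0.18, 0.20, 0.14 and 0.19 in ID1, ID2, ID3 and ID4, and the part of the chromosome was not tested. MYH9, the heavy chain of non-muscle myosin IIA, ranged from 334 to 351 CPM in GFP and was called higher in ID1 (1.24-fold, adjusted p = 0.000305), ID2 (1.25-fold, adjusted p = 0.000148) and ID3 (1.22-fold, adjusted p = 0.000721). The IIB heavy chain MYH10 was at or near the floor, with 1 to 9 counts per library, and was not tested. The other regulatory light chains, MYL12A and MYL12B, were abundant and not called in any comparison with GFP. MYL12A had group means of 305 to 347 CPM and MYL12B of 895 to 999 CPM, and library 3 of ID2 had the lowest MYL12B value at 734 CPM. Without that library MYL12A was called in ID2 (adjusted p = 0.0125). MYL12A was also called in ID1 with no filter on low values and with only the groups compared (lowest adjusted p 0.0317), and MYL12B in ID3 with no filter (adjusted p = 0.0261). MYL12A and MYL12B are near-identical copies, as are ACTB and ACTG1 over much of their coding sequence, and how reads that match both were counted is not given in the sources used here.

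The tropomyosins did not move together. TPM1 lies at chr15:63334819-63364114 on the plus strand of GRCh37. TPM1 and TPM2, which give the α- and β-tropomyosins of muscle and of stress fibres, rose in every ID group, TPM3 fell in 3 of the 4, and TPM4 rose in ID2 alone among the calls against GFP. TPM1 was at 119.9, 122 and 121 CPM in the GFP libraries, 294, 275 and 263 in ID1, 282, 278 and 295 in ID2, 278, 292 and 270.3 in ID3 and 224, 227 and 238 in ID4. Every ID library lay above every GFP library, the lowest of them at 224 CPM. TPM1 rose 2.30-fold in ID1 (log2 fold change 1.20, SE 0.053, edgeR adjusted p = 1.99e-13), 2.36-fold in ID2, 2.32-fold in ID3 and 1.90-fold in ID4. ID4 was below the other ID groups, with ID1 at 1.21-fold the level of ID4 (adjusted p = 0.00198), and ID1, ID2 and ID3 were not called apart from each other. TPM1 lies on chromosome 15, whose tested genes had median log2 fold changes of 0.34, 0.26, 0.32 and 0.37 in ID1, ID2, ID3 and ID4, and the part of the chromosome in the rise of TPM1 was not tested.

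TPM2 was at 9.77, 13.8 and 11.9 CPM in the GFP libraries, 21.4, 20.4 and 21.6 in ID1, 17.6, 18.1 and 19.2 in ID2, 19.2, 22.9 and 20.1 in ID3 and 24.8, 21.3 and 22.98 in ID4. The GFP libraries lay below all ID libraries. It rose 1.80-fold in ID1, 1.56-fold in ID2, 1.76-fold in ID3 and 1.96-fold in ID4 (edgeR adjusted p = 1.17e-06), and here ID4 had the top mean and ID2 the lowest of the ID groups. The tested genes of chromosome 9, where TPM2 lies, had median log2 fold changes of 0.0085, -0.14, 0.0090 and 0.010 in ID1, ID2, ID3 and ID4. The part of that chromosome was not tested. TPM3, at 306 ± 2.12 CPM (SD, n = 3) in GFP, was at 261 ± 5.497 CPM in ID1 (log2 fold change -0.23 ± 0.045, adjusted p = 0.000674), 269 ± 9.39 CPM in ID2 (-0.19 ± 0.045, adjusted p = 0.00232) and 255 ± 5.03 CPM in ID3 (-0.26 ± 0.045, adjusted p = 0.000134), and its level in ID4 was 282 ± 2.61 CPM (adjusted p = 0.0716). TPM4, the most counted tropomyosin, was at 670.3 ± 9.89 CPM in GFP and 809.7 ± 30.8 CPM in ID2 (log2 fold change 0.27 ± 0.046, adjusted p = 8.13e-05). In ID4 it was at 618 ± 34.2 CPM and not called (adjusted p = 0.0796, and 0.0262 without ID4 library 3). TPM3 has processed copies elsewhere in the genome, and its count is uncertain to that extent.

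Shares within the family were compared next. TPM1 took 10.9% ± 0.073 (SD, n = 3) of all tropomyosin counts in GFP, 21.7% ± 1.01 in ID1, 20.6% ± 0.17 in ID2, 23.1% ± 0.44 in ID3 and 19.9% ± 0.26 in ID4. TPM3 took 27.6% ± 0.45 in GFP and 20.4% ± 0.35, 19.4% ± 0.15, 21.03% ± 0.57 and 24.5% ± 1.01 in the same order. The TPM4 share was 60.5% ± 0.33 in GFP and between 53.6% ± 1.13 in ID4 and 58.6% ± 0.29 in ID2. No ID library overlapped GFP in any of these 3 shares (exact permutation test, two-sided, p = 0.1; with 3 libraries in each group no smaller p can be reached). Shares within a family do not depend on how libraries were scaled, but a rise of 1 member lowers the shares of the others.

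**Figure D3:**
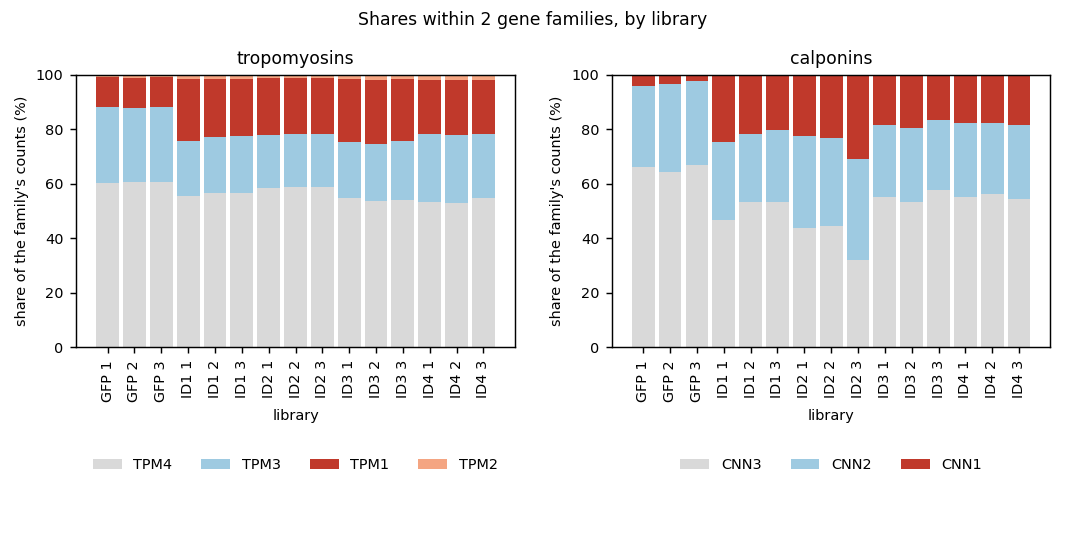
Stacked bars give each gene's share, in percent, of the counts of its family in each of the 15 libraries, for tropomyosins (left) and calponins (right). The TPM1 segment is about 11% in GFP and 20% to 23% in the ID libraries, and the CNN1 segment grows from 2.26% to 4.38% in GFP to 16.8% or more.

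In the calponin family CNN1 held 3.34% ± 1.06 (SD, n = 3) of the calponin counts in GFP and 22.3% ± 2.33, 25.6% ± 4.52, 18.3% ± 1.44 and 17.9% ± 0.40 in ID1, ID2, ID3 and ID4. CNN3, the acidic calponin of non-muscle cells, held 65.7% ± 1.41 in GFP and 40.1% ± 6.92 to 55.4% ± 2.21 in the ID groups, while its own level was not called in any comparison with GFP except, in ID1 and ID4, with no filter or with only the groups compared (lowest adjusted p 0.0269). The low ID2 value includes library 3, where CNN3 was at 71.3 CPM and the other ID2 libraries were at 120 CPM or more. Among the actins the smooth muscle isoform stayed a small part. ACTA2 took 0.064% ± 0.0044 of the counts of ACTB, ACTG1, ACTA2 and ACTG2 in GFP and 0.107% ± 0.017 to 0.160% ± 0.014 in the ID groups.

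Of the 7 cytoplasmic actins and crosslinkers, 4 were called higher in ID1, 5 in ID2, 3 in ID3 and 4 in ID4, and none lower, with median log2 fold changes of 0.20, 0.40, 0.15 and 0.24. ACTG1, the γ-actin, was at 5536 ± 147 CPM in GFP and rose in ID2 (1.18-fold, edgeR adjusted p = 0.000409). In ID1 it was at 6074 ± 117 CPM with an adjusted p of 0.0511, and 4 of 13 alternatives called it (lowest adjusted p 0.012). ACTB, the β-actin often used as a reference gene, was at 2209.9 ± 81.2 CPM in GFP, 2545 ± 78.04 CPM in ID1, 3066 ± 6.64 CPM in ID2, 2232 ± 2.66 CPM in ID3 and 2296 ± 60.6 CPM in ID4. It rose 1.15-fold in ID1 (adjusted p = 0.000855) and 1.39-fold in ID2 (adjusted p = 7.54e-09), and the ID2 libraries lay above all others.

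ACTN1, the α-actinin of stress fibres and adhesions, was at 534, 541 and 564 CPM in the GFP libraries, 720.2, 749 and 733 in ID1, 834, 815 and 765 in ID2, 669, 700.3 and 677 in ID3 and 740.1, 742 and 732 in ID4. Every ID library was above every GFP library. It rose 1.34-fold in ID1, 1.47-fold in ID2 (edgeR adjusted p = 1.9e-09), 1.25-fold in ID3 and 1.35-fold in ID4. Its paralog ACTN4 rose by a like amount in each group, 1.29-fold, 1.32-fold, 1.30-fold and 1.29-fold, with an adjusted p of 3.26e-06 or less, and none of the 6 pairs of ID groups was called apart for ACTN4. The opposite-strand neighbour CAPN12 has 88.7% to 92.3% of the ACTN4 count in each library, so the reads of these overlapping genes cannot be told apart. The opposite-strand neighbours SMARCC2 of MYL6, AP3M1 of VCL and SGSM3 of MKL1 had 11.3% to 15.2%, 12.1% to 26.01% and 127% to 177% of the count of the member.

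CNN2, a calponin of non-muscle cells, was at 53.1, 54.6 and 54.5 CPM in the GFP libraries, 72.6, 64.6 and 67.2 in ID1, 92.1, 91.8 and 82.2 in ID2, 59.2, 58.96 and 61.9 in ID3 and 65.7, 62.1 and 63.02 in ID4. The ID2 libraries stood above all others, and the GFP libraries lay below all ID libraries. CNN2 rose 1.26-fold in ID1 (edgeR adjusted p = 0.000432), 1.64-fold in ID2 (adjusted p = 7.89e-09) and 1.18-fold in ID4 (adjusted p = 0.00996, and 0.0512 without ID4 library 1), and was not called in ID3 (adjusted p = 0.0792, and 0.0487 with library totals not scaled by TMM). TAGLN2, the transgelin of non-muscle cells, was called in ID3 (1.16-fold, adjusted p = 0.0326) and ID4 (1.19-fold, adjusted p = 0.018). Neither call held with each library left out, with adjusted p of 0.063 to 0.192 in ID3 without GFP library 1 or 2 or ID3 library 1 or 3, and 0.0627 to 0.128 in ID4 without GFP library 1 or ID4 library 1 or 2. Without ID2 library 2, TAGLN2 was called in ID2 (adjusted p = 0.0339).

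All 4 filamins and adhesion scaffolds were called higher in ID2 and 3 of the 4 in each other ID group. FLNC, the filamin of muscle, was at 128, 118 and 118 CPM in the GFP libraries, 179, 175 and 161 in ID1, 154, 171 and 166 in ID2, 176, 188 and 167 in ID3 and 172, 171 and 164 in ID4. Every ID library lay above every GFP library. It rose 1.42-fold, 1.35-fold, 1.46-fold and 1.40-fold in ID1, ID2, ID3 and ID4 (edgeR adjusted p of 9.25e-06 or less), and no pair of ID groups was called apart. FLNA, the widely expressed filamin, was at 546 ± 12.7 CPM in GFP and rose 1.36-fold in ID2 (adjusted p = 2.96e-06) and 1.24-fold in ID3 (adjusted p = 0.000329). Its calls in ID1 (1.14-fold, adjusted p = 0.0186) and ID4 (1.14-fold, adjusted p = 0.0196) were lost without GFP library 2, without ID1 library 1 or 2 and without ID4 library 1, at adjusted p of 0.075 to 0.0828. VCL, vinculin, rose 1.37-fold in ID2 (adjusted p = 6.26e-06) and 1.15-fold in ID3 (adjusted p = 0.0199, and 0.055 to 0.119 without GFP library 2 or 3 or ID3 library 1).

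TNS1, tensin 1, which ties actin to integrins, followed another order. It was at 0.209, 0.334 and 0.508 CPM in the GFP libraries, 1.31, 1.41 and 1.18 in ID1, 0.738, 1.05 and 0.637 in ID2, 0.338, 0.568 and 0.966 in ID3 and 2.08, 1.53 and 1.44 in ID4. All ID1 and ID4 libraries were at 1.18 CPM or more, and ID3 overlapped GFP. With 13 counts in GFP and 63 in ID4, the ratio on summed counts was 4.96 (95% interval 2.70 to 9.82 for counting error only), and with 55 in ID1 it was 3.82 (2.06 to 7.62). The fitted rise was called in ID1 (log2 fold change 1.90, SE 0.42, edgeR adjusted p = 0.00197) and in ID4 (log2 fold change 2.27, SE 0.41, edgeR adjusted p = 0.000273). In ID2 (log2 fold change 1.22, SE 0.46, edgeR adjusted p = 0.0428) the call was lost without GFP library 1 or 2, without ID2 library 1 or 2 (adjusted p 0.0603 to 0.175) and by DESeq2 and 3 other alternatives (0.0579 to 0.0852). ID3 was not called (adjusted p = 0.215). ID3 and ID2 were below ID4, with log2 differences of -1.44 ± 0.35 (adjusted p = 0.0104, and 0.0642 to 0.0684 without ID3 library 1 or ID4 library 1) and -1.05 ± 0.33 (adjusted p = 0.0312, and 0.0514 to 0.147 without ID2 library 1 or 3 or ID4 library 1 or 2).

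Of the LIM proteins, 2 of 6 were called higher in ID1, ID3 and ID4 and 5 of 6 in ID2. FHL2, a LIM-only protein that moves between adhesions and the nucleus, was at 62.4, 63.4 and 64.7 CPM in the GFP libraries, 89.6, 90.6 and 86.6 in ID1, 81.95, 78.9 and 89.7 in ID2, 101, 103 and 96.3 in ID3 and 77.2, 80.2 and 80.2 in ID4. GFP lay below all ID libraries, and ID3 was the highest group. FHL2 rose 1.40-fold in ID1, 1.32-fold in ID2, 1.58-fold in ID3 (edgeR adjusted p = 1.67e-08) and 1.25-fold in ID4 (adjusted p = 0.000397), and ID3 exceeded ID2 (adjusted p = 0.00318) and ID4 (adjusted p = 0.000498).

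PDLIM7, also called enigma, was at 7.75, 6.26 and 8.97 CPM in the GFP libraries, 12.7, 14.5 and 14.6 in ID1, 13.5, 14.1 and 11.04 in ID2, 12.3, 9.24 and 11.97 in ID3 and 10.9, 11.6 and 10.5 in ID4. All ID libraries lay above all GFP libraries. It rose 1.82-fold in ID1 (edgeR adjusted p = 0.000105), 1.68-fold in ID2 (adjusted p = 0.000284), 1.46-fold in ID3 (adjusted p = 0.00726) and 1.43-fold in ID4 (adjusted p = 0.014). Without GFP library 2 the adjusted p was 0.0526 in ID3, and without GFP library 2 or ID4 library 2 it was 0.052 to 0.0866 in ID4.

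The adhesion protein ZYX (1.17-fold, edgeR adjusted p = 0.0152), PDLIM5 (1.18-fold, adjusted p = 0.0492) and CSRP1 (1.28-fold, adjusted p = 0.00112) were called higher in ID2 alone. The ZYX call was lost without GFP library 1 or 2 or ID2 library 1 (adjusted p 0.0609 to 0.0766), and with only the groups compared ZYX was called in ID1 too (adjusted p = 0.0374). That of PDLIM5 was lost without GFP library 2 or 3 or ID2 library 2 (adjusted p 0.0989 to 0.256) and in 5 other alternatives, DESeq2 among them (0.051 to 0.0971). CSRP1 was lower in library 3 of ID2, at 90.6 CPM, than in the other ID2 libraries. TGFB1I1, also called Hic-5, had group means of 23.9 to 28.6 CPM and was not called in any ID group. In ID2 its adjusted p was 0.0541, and 3 of 13 alternatives called it (lowest adjusted p 0.0102).

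**Figure D4:**
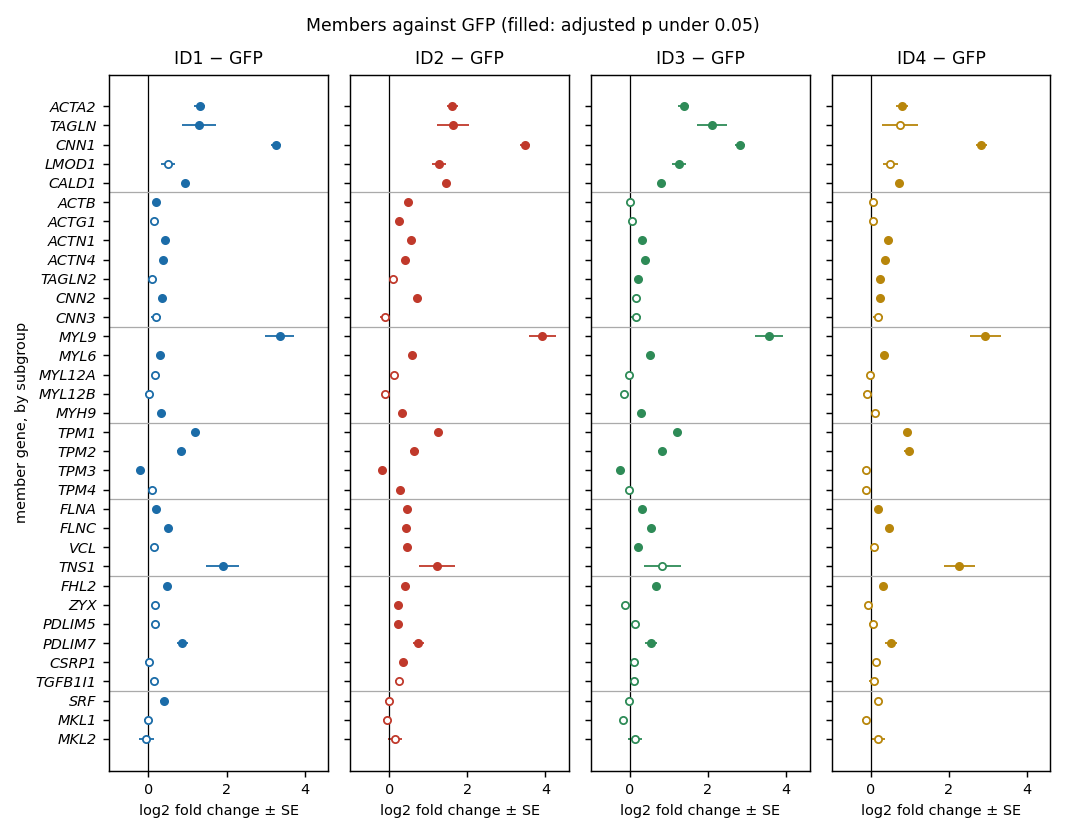
Log2 fold change against GFP (point) with its standard error (bar) for the 34 tested members, 1 panel for each ID group and members ordered by role; filled points have an adjusted p under 0.05. MYL9 and CNN1 lie between 2.81 and 3.92 in every panel, most other filled points lie between 0 and 2, and the filled points of TPM3 lie below 0.

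Of the 3 regulators, SRF was called in ID1 and none in ID2, ID3 or ID4. SRF lies at chr6:43139007-43149244 on the plus strand of GRCh37 and was at 115, 141 and 152 CPM in the GFP libraries, 172, 185 and 179 in ID1, 138, 141 and 126 in ID2, 113, 139 and 146 in ID3 and 154, 152 and 159 in ID4. All ID1 libraries lay above all others, and ID2 and ID3 overlapped GFP. SRF rose 1.31-fold in ID1 (log2 fold change 0.39, SE 0.087, edgeR adjusted p = 0.00202) and was not called in ID2, ID3 or ID4 (adjusted p = 0.944, 0.805 and 0.134). ID1 also exceeded ID2 by 1.32-fold (adjusted p = 0.00213) and ID3 by 1.35-fold (adjusted p = 0.00316). These 3 calls of SRF held in every alternative fit and with each library left out, and SRF in ID4 was called with no filter on low values and without GFP library 3 (lowest adjusted p 0.0271). MKL1 was at 17.2, 14.9 and 18.7 CPM in the GFP libraries, 17.7, 16.9 and 15.9 in ID1, 16.9, 14.9 and 17.3 in ID2, 14.9, 14.7 and 15.6 in ID3 and 15.3, 15.9 and 15.4 in ID4. MKL2 was at 10.5, 8.84 and 7.53 CPM in the GFP libraries, 10.2, 7.59 and 8.10 in ID1, 9.52, 8.32 and 11.96 in ID2, 11.9, 8.67 and 8.85 in ID3 and 8.79, 8.81 and 12.9 in ID4. The groups overlapped for both cofactors, and neither was called in any of the 10 comparisons. Standard errors of the log2 fold change were 0.10 for MKL1 and 0.18 to 0.19 for MKL2, so small differences were not detectable at this spread. Nuclear MKL1 or MKL2 protein was not measured here.

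The contrasts among the ID groups leave out the GFP means, but the GFP libraries were in the same fit and shared its estimate of the spread. A joint test found a difference among ID1, ID2, ID3 and ID4 for 21 of the 34 tested members, and for 29.1% of all tested genes. Without library 3 of ID2 it found 23. Between ID2 and ID4, 17 members were called (50.0% of the members, 18.6% of all tested genes), 15 of them higher in ID2. Between ID1 and ID2, 11 were called (18.6% of all tested genes), 10 of them higher in ID2, and between ID2 and ID3 also 11 (15% of all tested genes), 10 of them higher in ID2. Without library 3 of ID2 these 3 counts were 17, 11 and 13. Of the pairs without ID2, ID1 and ID3 differed in 6 members (9.18% of all tested genes), 4 of them higher in ID1. ID1 and ID4 differed in 8 (4.87%) and ID3 and ID4 in 8 (11.3%). The count for ID1 against ID4 was between 2 and 4 without any 1 of its 6 libraries, and that for ID3 against ID4 was 4 without ID4 library 1 and 5 without ID4 library 3. Of the 8 members called between ID1 and ID4, all were higher in ID1, and of the 8 between ID3 and ID4, 6 were higher in ID3.

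ID2 stood highest for several abundant members. The level in ID2 was 1.37-fold that in ID3 for ACTB (log2 fold change 0.46, SE 0.041, edgeR adjusted p = 8.94e-08), 1.48-fold for CNN2 (log2 fold change 0.56, SE 0.062, edgeR adjusted p = 1.62e-06) and 1.23-fold for TPM4 (log2 fold change 0.30, SE 0.046, edgeR adjusted p = 0.000104). Against ID4 the same 3 genes were 1.34-fold, 1.39-fold and 1.31-fold higher. VCL was 1.29-fold higher in ID2 than in ID4 (adjusted p = 0.000244). The genes higher in another ID group than in ID2 were few. They were SRF in ID1, FHL2 in ID3, and TPM2 and TNS1 in ID4, and the call of TPM2 was lost without ID2 library 1 or 2 or ID4 library 1 or 3 (adjusted p 0.0685 to 0.139). CD44 was lower and FN1 and VIM were higher in ID2 than in GFP (2.33-fold for FN1, 1.23-fold for VIM), so the 3 mesenchymal markers did not move 1 way with the members. The shifts of FN1 and CD44 were not particular to ID2. Mean FN1 was 6106 CPM in GFP and 8432, 14199, 14079 and 9401 CPM in ID1, ID2, ID3 and ID4, and mean CD44 was below GFP in every ID group.

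**Figure D5:**
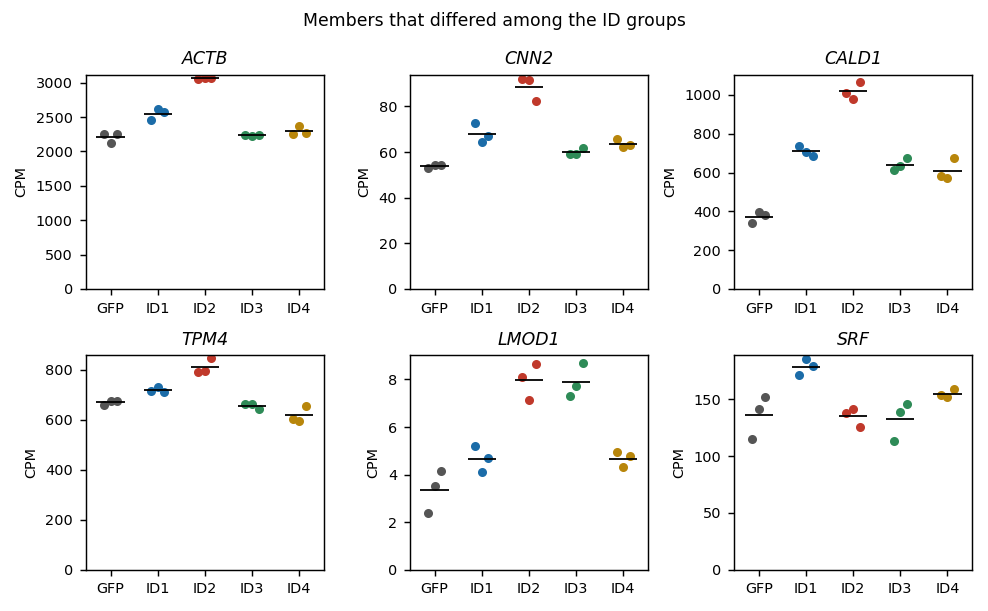
Level in CPM of 6 members in each library (points, linear axis from 0) with the group mean (line). ID2 is the top group for ACTB, CNN2, CALD1 and TPM4, ID2 and ID3 lie together above the other groups for LMOD1, and ID1 is the top group for SRF.

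Other genes of the pathway were read from lists chosen by role, also with earlier results of these data known. The shares of all tested genes called higher and lower in ID1, ID2, ID3 and ID4 were 12.4% and 9.73%, 18.5% and 16.7%, 15.1% and 13.5%, and 12.1% and 9.51%. Among 16 tested genes of adhesion and LIM proteins that are no members, 4 were called higher and 1 lower in ID1, 6 and 2 in ID2, 5 and 3 in ID3, and 5 and 1 in ID4. The integrin-linked adaptors PARVA (1.14-fold, 1.42-fold, 1.20-fold and 1.13-fold) and FERMT2 (1.24-fold, 1.31-fold, 1.19-fold and 1.21-fold) were called higher in ID1, ID2, ID3 and ID4. The genes called lower were PDLIM1 in ID1 (log2 fold change -0.23 ± 0.065), PXN (-0.17 ± 0.046) and PDLIM3 (-1.46 ± 0.38) in ID2, ILK (-0.26 ± 0.082) and EVL (-0.61 ± 0.17) in ID3, and LPP in ID3 and ID4 (-0.28 ± 0.081 and -0.27 ± 0.082). Of 10 other contractile genes, 4 had enough counts to be tested, and TNNT1, a skeletal muscle troponin, was called higher in every ID group (1.70-fold in ID2). Defining genes of differentiated smooth muscle were not called or were at or near the floor. MYH11 was at 3.69 ± 0.43 CPM in GFP and had group means of 3.36 to 3.97 CPM in the ID groups, DES had at most 8 counts in any library, and MYOCD, the smooth muscle cofactor of SRF, had 1 count in all 15 libraries. The epithelial markers EPCAM and CDH1 had at most 15 and 3 counts in any library. The endothelial markers PECAM1 and CDH5 had at most 8 and 2 counts, and PTPRC of blood cells at most 8. CD68, a lysosomal marker of macrophages that other cells also make, was at 52.3 ± 3.17 CPM in GFP and was called higher in ID2 (72.7 ± 1.46 CPM), ID3 and ID4, and its part in the members' values was not tested.

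The other class of SRF targets, the immediate early genes, and the ternary complex factors that act with SRF on them were listed separately. Of 10 tested, 1 was called in ID1 (MCL1, lower), 4 in ID2 (ELK1 and JUNB higher, ELK3 and MCL1 lower), 1 in ID3 (EGR1, 1.43-fold, edgeR adjusted p = 0.00539) and 1 in ID4 (FOSB), where 22.1%, 35.1%, 28.6% and 21.6% of all tested genes were called in either direction. Their median log2 fold change was -0.033, 0.10, -0.026 and -0.038 in ID1, ID2, ID3 and ID4, where that of the 5 tested smooth-muscle-type genes was 1.29, 1.62, 1.37 and 0.75. The median of the early gene list covers targets and ternary complex factors together, and why the 2 lists differ was not tested. Single genes of the list ranged from -0.23 to 0.91 in ID1 and -0.59 to 0.54 in ID2. The ranges were -0.51 to 1.16 in ID3 and -0.33 to 1.35 in ID4. Of 10 genes of TGF-β signalling, a known inducer of ACTA2 and TAGLN, 4 were called higher and 1 lower in ID1, ID3 and ID4, and 5 and 2 in ID2. Over all tested genes, 12.1% to 18.5% were called higher and 9.51% to 16.7% lower, depending on the ID group. TGFB2, a ligand, was at 34.6 ± 1.07 CPM in GFP and 70.7 ± 2.64 CPM, 76.9 ± 2.66 CPM, 68.1 ± 1.87 CPM and 52.1 ± 0.755 CPM in ID1, ID2, ID3 and ID4. The receptor gene TGFBR2 was lower in all 4 ID groups (log2 fold change -0.73, -0.50, -0.50 and -0.40), and TGFBR1 was higher in all 4. The largest log2 fold change in the list was 1.65, 1.51, 1.70 and 1.13 in ID1, ID2, ID3 and ID4, in a gene other than TGFB2. The part of this pathway in the members' values was not tested.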

How the data were processed

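mRNA was measured in 15 libraries of U87MG cells (5 groups, 3 libraries each). The labels name the QuantSeq 3′ kit, the hg19 build (GRCh37) and, in the submitters' processing notes, Bowtie2 and BWA. The counting tool, its strand setting and the annotation are not given in the sources used here. For each gene the authors deposited raw counts, without normalization, and a log2 value normalized between libraries.

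Counts were fitted with edgeR 4.0.16 in R 4.3.3 (TMM factors 0.978 to 1.026, quasi-likelihood test, 1 mean per group over all 15 libraries, Benjamini-Hochberg adjustment over 12870 genes whose deposited log2 values averaged at least 3.22). The standard error of a log2 fold change was its size over the square root of the F statistic. Members named with a value in every library were those called with an absolute log2 fold change of 0.5 or more in at least 1 comparison, and the regulators. The members and all lists were chosen with earlier results of these data known. Some results on genes that are no members are not reported here. Alternatives were other filters, library totals, DESeq2 1.42.0, limma 3.58.1 on the deposited log2 values, only the groups compared, the replicate number as a block, a fold limit, and each library left out. CPM values were taken over TMM-scaled totals. Exact intervals were computed at 95% from summed counts. Gene positions came from GENCODE on GRCh37, matched for 12448 of the 12870 tested genes, and MKL1 and MKL2 were matched through the newer symbols MRTFA and MRTFB. Promoters came from RefSeq on GRCh38.p14. Python 3.11.15 and its matplotlib 3.10.9 drew the figures.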

Additional observations from a re-analysis of the deposited data

How the results depend on the processing

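None of the 142 called log2 fold changes of members changed sign in any of the alternative fits, and 109 of them kept their call in each. Against GFP, 69 of 81 did. The fold limit is left out of these counts and is given below. Of the 55 values against GFP that were not called, 17 changed sign in 1 or more alternatives, and of the 715 values that these 55 took under alternatives, 24 were called in the same direction. Requiring an absolute log2 fold change of 0.5 or more as well left 10, 13, 12 and 8 members called in ID1, ID2, ID3 and ID4 against GFP. Under the same limit 2 were left for ID1 against ID2, 1 for ID1 against ID3, 1 for ID1 against ID4, 3 for ID2 against ID3, 6 for ID2 against ID4 and 4 for ID3 against ID4. With only the groups compared in the fit, 11 members were called for ID1 against ID3. The count for ID1 against ID4 was 5 with limma and 2 to 4 with each library left out in turn, and that for ID3 against ID4 was 4 to 8. Library 1 or 3 of ID4 left out gave 4 or 5 for ID3 against ID4. The causes were not tested.

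Libraries carry the numbers 1 to 3 in every group, with no statement of what a number shares. Deviations from the group mean of equally numbered libraries correlated at -0.33 to 0.30 (mean -0.029), and those of unequally numbered ones at -0.26 to 0.28 (mean 0.014), so the numbers were not taken to pair the libraries. With the number as a replicate block, 5 members were called for ID1 against ID4 in place of 8, and in no other comparison did the count move by more than 1.5 times. Depth limits the rare members, since MYL9, TAGLN, TNS1, MYH10 and ACTG2 had 0 to 10 counts in each GFP library.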
